A study of Arabidopsis thaliana with 6 samples.

Results

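The type-A response regulators of Arabidopsis thaliana are a family of 10 genes, ARR3 to ARR9 and ARR15 to ARR17, taken here by gene identifier. Of these 10, 7 had a row in the deposited comparison of the pkl mutant with the wild type, which listed 2896 loci. The 7 were selected on measured values, since a row needed a lower FPKM in pkl than in WT and a q-value of the authors under their threshold. The other 3, ARR3 (AT1G59940), ARR16 (AT2G40670) and ARR17 (AT3G56380), had no row, and neither their level nor their direction was analysed here. Total RNA came from whole seedlings aged 14 days, grown under long days, from the wild type (WT) in 3 libraries and from pkl in 3. The mutant carries a lesion in PICKLE (PKL), which encodes a CHD3-type chromatin remodeler. The pkl allele, the accession of the WT, the strandedness of the libraries and whether replicates were grown separately are not given in the sources used here.

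Each value below is the authors' FPKM, the number of fragments scaled to transcript length and to the mapped fragments of the library. There was 1 such value per genotype and locus, so no value carries an error or an n of its own. Library depth is unknown. Every locus in the table was lower in pkl and was marked as changed by the authors at a q-value under 0.05. These loci were 14.8% of the 19554 tests that the deposited p-values and q-values imply. The 7 listed members are therefore a description of 1 side of the comparison, and nothing is read from their number against that share. In whole seedlings, fewer cells that express a gene and less RNA per cell cannot be told apart.

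Cytokinins are plant hormones that promote shoot growth, cell division and chloroplast development and restrain root growth. Their receptors are histidine kinases that pass phosphate through histidine phosphotransfer proteins to response regulators. Type-B regulators are DNA-binding transcription factors that switch on cytokinin target genes. Among those targets are the type-A genes, whose products lack a DNA-binding domain and dampen the same pathway. Type-A transcripts are therefore in common use as a readout of cytokinin response.

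The family falls into pairs of close relatives, and the annotated gene models were alike in layout, with 5 coding exons in all 10 genes. Translated from the RefSeq annotation of TAIR10.1, the closest proteins were ARR16 and ARR17, identical at 86.7% of aligned positions. ARR5 and ARR6 were identical at 81.4%, ARR3 and ARR4 at 79.1%, ARR8 and ARR9 at 74.4%, and ARR7 and ARR15 at 72.3%. Both genes of a pair had a row for ARR5 and ARR6, for ARR7 and ARR15 and for ARR8 and ARR9. From the pair of ARR3 and ARR4 only ARR4 had a row, and from the pair of ARR16 and ARR17 neither did. The coding sequences were not near-identical: the longest stretch that any pair of members shared exactly was 41 bases, between ARR3 and ARR4 and between ARR8 and ARR9.

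**Figure D1:**
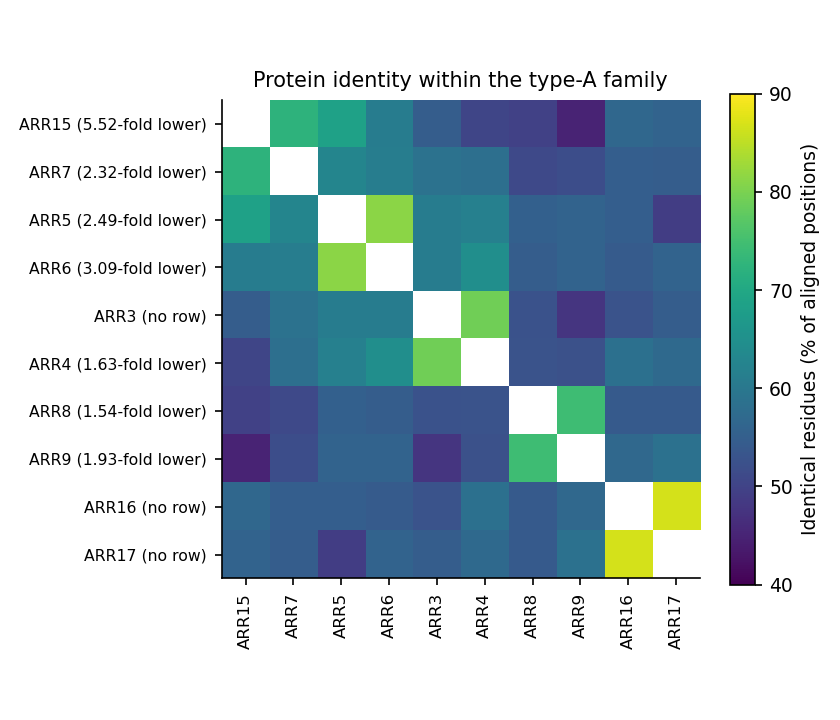
Percent identity between the 10 type-A proteins, by colour, as the share of aligned positions with the same residue; labels on the vertical axis give the fold by which each listed gene was lower in pkl, and genes without a row are marked. The brightest cells off the diagonal are the 5 close pairs, from 72.3% for ARR7 and ARR15 to 86.7% for ARR16 and ARR17.

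The sequences just upstream of the listed genes are shown for the pairs with the largest falls, ARR7 with ARR15 and ARR5 with ARR6, because these members were lower together and their upstream regions differ in how far they resemble each other. Each is the window of 250 bases before the annotated gene start in TAIR10.1, from RefSeq, read 5′ to 3′ on the strand of the gene. All 4 genes lie on the minus strand. The windows are chr1:28133026-28133275 for ARR15, chr1:6579315-6579564 for ARR7, chr5:25254319-25254568 for ARR6 and chr3:17760951-17761200 for ARR5. Capitals mark matches to AGATT on either strand (AATCT on the strand shown), a core motif bound by type-B regulators.
ARR15: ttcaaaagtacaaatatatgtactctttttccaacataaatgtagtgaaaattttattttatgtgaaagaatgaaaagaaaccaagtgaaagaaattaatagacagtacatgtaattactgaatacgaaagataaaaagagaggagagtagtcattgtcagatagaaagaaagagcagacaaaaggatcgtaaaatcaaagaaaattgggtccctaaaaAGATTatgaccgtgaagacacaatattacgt
ARR7: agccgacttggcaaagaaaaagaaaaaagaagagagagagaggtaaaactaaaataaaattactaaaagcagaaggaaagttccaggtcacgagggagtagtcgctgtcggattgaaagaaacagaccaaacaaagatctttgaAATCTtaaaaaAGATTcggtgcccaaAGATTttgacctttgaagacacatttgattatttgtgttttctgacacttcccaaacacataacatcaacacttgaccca
ARR6: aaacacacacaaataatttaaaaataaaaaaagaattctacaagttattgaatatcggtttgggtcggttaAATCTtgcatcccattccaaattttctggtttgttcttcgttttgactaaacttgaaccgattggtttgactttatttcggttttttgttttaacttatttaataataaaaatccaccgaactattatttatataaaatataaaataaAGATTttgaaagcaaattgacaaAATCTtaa
ARR5: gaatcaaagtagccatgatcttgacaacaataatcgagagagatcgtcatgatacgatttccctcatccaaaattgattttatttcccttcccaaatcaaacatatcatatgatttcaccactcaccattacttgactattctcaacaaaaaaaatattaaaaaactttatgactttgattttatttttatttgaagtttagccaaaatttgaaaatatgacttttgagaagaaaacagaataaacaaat

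The windows of ARR7 and ARR15 shared a long similar stretch. Over 95 aligned bases, 82 were identical (86.3%), from base -159 to base -58 before the start of ARR7 and from base -110 to base -10 before that of ARR15. ARR7 had 3 AGATT matches in its window and ARR15 had 1. The match that begins at base -31 in ARR15 was aligned with the one at base -80 in ARR7, and the other ARR7 matches lay opposite other bases. Among the other pairs of members, the best-scoring alignment was that of ARR16 and ARR17, with 103 of 130 aligned bases identical (79.2%). For ARR5 and ARR6 the best alignment was short, with 26 of 29 aligned bases identical (89.7%).

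AGATT matches were present in the windows of 7 of the 10 members, and in 5 of the 7 with a row. The windows end at the annotated gene start, whereas the listed loci begin further in, by 403 bases for ARR4, 315 for ARR15 and 76 for ARR5. The bases between these starts were not searched. ARR6 and ARR7 had 3 each, ARR9 and ARR16 had 2 each, ARR3, ARR8 and ARR15 had 1 each, and ARR4, ARR5 and ARR17 had none. The motif is short and common: 63.7% of the windows of 27438 nuclear protein-coding genes held at least 1 match, and 9.26% held 3 or more. The related letters GGATT, searched on both strands, were in 6 of the 10 windows against 38.0% of all windows, and AGATAC was in 2 of the 10, those of ARR9 and ARR17, against 9.63%. No match overlapped another in these windows. Of the falls given below, those of ARR6 and ARR7, with 3 AGATT matches each, were 3.09-fold and 2.32-fold. ARR9, with 2 matches, was 1.93-fold lower. ARR15 and ARR8, with 1 each, were 5.52-fold and 1.54-fold lower, and ARR5 and ARR4, with none, 2.49-fold and 1.63-fold. Whether the number of matches goes with the fall was not tested.

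**Figure D2:**
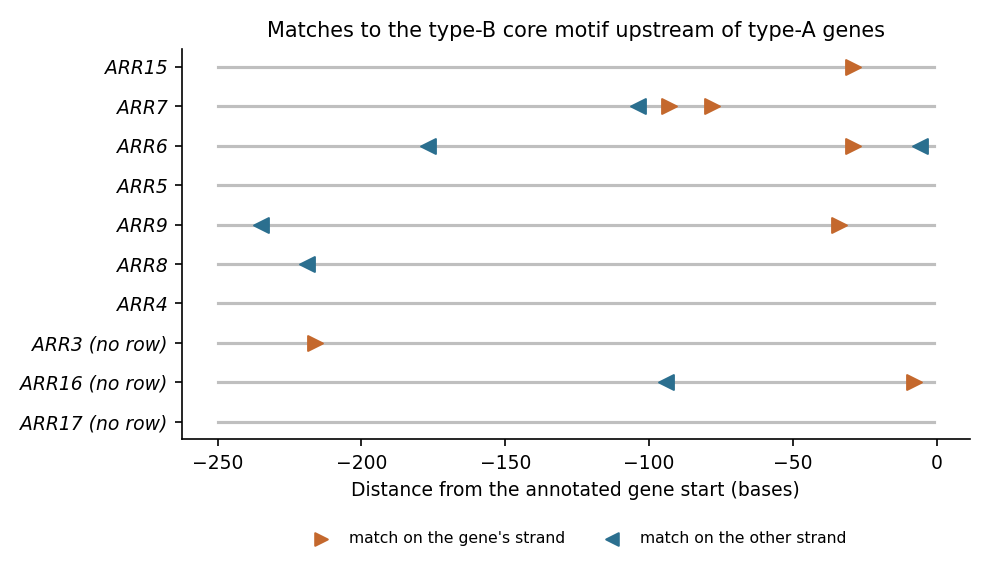
Positions of AGATT-type core motif matches in the 250 bases before the annotated start of each type-A gene; the horizontal axis is the distance from the start in bases, and arrowheads point right for matches on the strand of the gene and left for the other strand. ARR6 and ARR7 carry 3 matches each, and ARR4, ARR5 and ARR17 carry none.

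The PKL transcript (AT2G25170) itself, the product of the mutated gene, had 19.2 FPKM in WT against 6.79 FPKM in the mutant. It was thus 2.84-fold lower in the mutant. Every listed locus shares this direction, so it is no check of the genotype.

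ARR5 and ARR6, among the first type-A genes known to respond to cytokinin, both fell. ARR6 (AT5G62920, chromosome 5, positions 25252386 to 25254212 in TAIR10) had a WT level of 43.2 FPKM and a pkl level of 14.0 FPKM. This was a fall of 3.09-fold, log2 fold change -1.63, the second largest of the 7. ARR5 (AT3G48100, named RR5 in RefSeq, chromosome 3, positions 17758427 to 17760874) had a WT level of 17.6 FPKM and a pkl level of 7.07 FPKM. It was 2.49-fold lower, log2 fold change -1.32. The level of ARR6 was 2.45 times that of ARR5 in WT and 1.97 times in pkl.

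ARR7 and ARR15, which in Arabidopsis are known for restraining cytokinin signalling in the embryonic root pole and the shoot meristem, fell by unequal factors. ARR7 (AT1G19050, chromosome 1, positions 6577833 to 6579178) had a WT level of 37.5 FPKM and a pkl level of 16.2 FPKM, 2.32-fold lower, log2 fold change -1.21. ARR15 (AT1G74890, chromosome 1, positions 28131590 to 28132710) had a WT level of 2.28 FPKM and a pkl level of 0.413 FPKM. Its fall of 5.52-fold, log2 fold change -2.46, was the largest of the 7, and its level the lowest of them in both genotypes. ARR7 was 16.4 times as high as ARR15 in WT and 39.1 times as high in pkl. The ARR15 locus in the table covers exactly the coding span of the annotated gene, so fragments from its untranslated ends lie outside it. The loci of the other listed members also stopped short of their annotated genes. ARR4 lacked 403 bases at the 5′ end and 339 at the 3′ end, and ARR5 lacked 76 at the 5′ end only. This limits how the levels of the members compare with each other.

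ARR8 and ARR9 fell less. ARR9 (AT3G57040, chromosome 3, positions 21109225 to 21111432) had a WT level of 30.0 FPKM and a pkl level of 15.5 FPKM, 1.93-fold lower, log2 fold change -0.95. An annotated gene that is not protein-coding, AT3G08825, overlaps this locus. Without strand, its reads and those of ARR9 cannot be told apart where they overlap. ARR8 (AT2G41310, named RR3 in RefSeq and distinct from ARR3, chromosome 2, positions 17221933 to 17224427) had a WT level of 15.8 FPKM and a pkl level of 10.3 FPKM. It was 1.54-fold lower, log2 fold change -0.62, the smallest fall of the 7. ARR9 was 1.9 times as high as ARR8 in WT and 1.51 times in pkl.

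ARR4, whose protein is known to bind the red-light receptor phytochrome B as well as acting in cytokinin signalling, had the highest level of the 7 listed members in both genotypes. ARR4 (AT1G10470, chromosome 1, positions 3442327 to 3443957) had a WT level of 90.4 FPKM and a pkl level of 55.4 FPKM. It was 1.63-fold lower, log2 fold change -0.71. This difference of 35.0 FPKM was the largest absolute difference among the 7, and of them only ARR8 had a smaller fold.

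**Figure D3:**
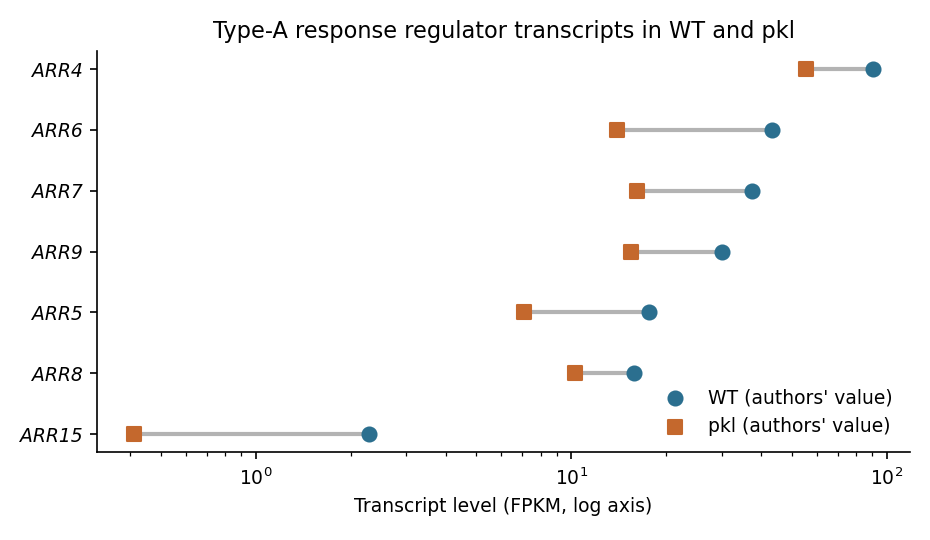
Transcript level of the 7 listed type-A genes in FPKM on a log axis, with circles for WT and squares for pkl, each the authors' single value per genotype, without error bars. All 7 squares lie to the left of their circles, as the make-up of the table fixes, and the gap is widest for ARR15 (2.28 to 0.413 FPKM) and narrowest for ARR8 (15.8 to 10.3 FPKM).

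The order of the members by level shifted between genotypes. In WT the order from high to low was ARR4, ARR6, ARR7, ARR9, ARR5, ARR8 and ARR15. In pkl it was ARR4, ARR7, ARR9, ARR6, ARR8, ARR5 and ARR15, so that ARR6 moved from the second place to the fourth and ARR5 changed places with ARR8. Without a spread between libraries it cannot be said which neighbours in these orders differ, and the closest in pkl, ARR7 at 16.2 FPKM, ARR9 at 15.5 FPKM and ARR6 at 14.0 FPKM, were near each other.

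Summed over the 7 members, the level was 236.8 FPKM for WT against 118.9 FPKM for pkl, a ratio of 1.99. ARR4 made up 38.2% of this sum in WT and 46.6% in pkl, while ARR6 made up 18.2% and 11.8%. ARR4 also accounted for 29.7% of the summed difference, ARR6 for 24.7%, ARR7 for 18.1% and ARR15 for 1.58%. Without ARR4 the sum was 2.31-fold lower, from 146.4 to 63.5 FPKM.

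Of the 7, 4 were at least 2-fold lower: ARR5, ARR6, ARR7 and ARR15. Among all listed loci 25.8% were at least 2-fold lower. The sum of these 4 members was 2.67-fold lower, from 100.5 to 37.6 FPKM, against 1.68-fold for ARR4, ARR8 and ARR9, from 136.3 to 81.2 FPKM. The 4 with the larger folds also had the shorter proteins of the 7, with 184 residues in ARR5, 186 in ARR6 and 206 in ARR7 and ARR15, against 225 in ARR8, 234 in ARR9 and 259 in ARR4. This grouping was made after the values were seen and was not tested.

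The median log2 fold change of the 7 was -1.21, beside -0.60 for all listed loci. All 7 had a larger fall than the median locus, ARR8 by a narrow margin: 48.5% of the listed loci fell further than ARR8, 41.4% further than ARR4 and 2.0% further than ARR15. In level, 5 of the 7 were above the median of the listed loci in WT, 16.8 FPKM, and ARR8 and ARR15 were below it. In the authors' deposited table the q-value was 0.000338 for 6 of the members, which is the smallest value listed and is shared by 1428 loci (49.3%). The exception was ARR15, with a q-value of 0.0126 in the authors' deposited table.

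**Figure D4:**
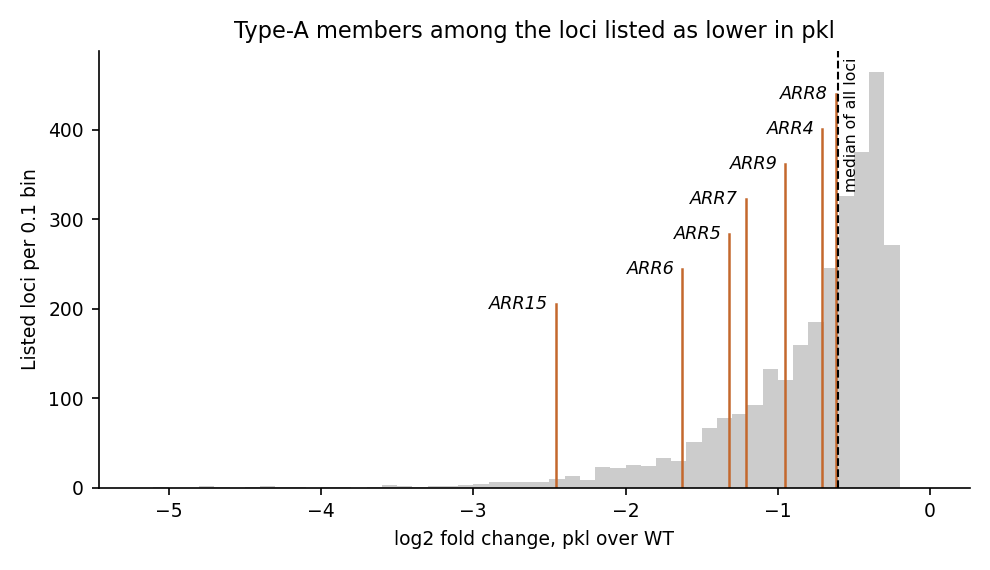
Number of listed loci by log2 fold change, pkl over WT, in bins of 0.1 (grey), with a vertical line for each type-A member and a dashed line at the median of all 2896 loci; the height of the member lines carries no value. The members run from ARR15 at -2.46 to ARR8 at -0.62, just below the median of -0.60.

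For each member the other locus nearest to it in log2 FPKM over the WT and pkl values was looked up. ARR7 lay closest to AGL87, a MADS-box gene with a WT level of 37.2 FPKM and a pkl level of 16.1 FPKM, at a distance of 0.0114 log2 units. ARR4 lay closest to LHCA6, of the photosystem I antenna, at 91.2 and 54.7 FPKM, and ARR8 to INT1, an inositol transporter gene, at 16.0 and 10.5 FPKM. ARR6 lay closest to TPS11, of the trehalose-phosphate synthase family, at 43.3 and 14.6 FPKM, and ARR15 to UNE15 at 2.06 and 0.432 FPKM. AT2G26695 was nearest to ARR5 and AT2G43610 to ARR9. The match of ARR15 was the loosest of these, at a distance of 0.163 log2 units, and that of ARR7 was the closest. Each likeness is over 2 values per locus.

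Of the 14 annotated protein-coding genes that flank the 7 members, 1 had a row: AT3G57030, beside ARR9, which was 1.3-fold lower. With 14.8% of all tests listed, this count is near the background. The levels and directions of the other flanking genes were not analysed here.

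The rest of the cytokinin pathway was read from the same table. Of 55 other genes of cytokinin synthesis, transport, breakdown and signalling, 19 were listed (34.5%), beside 14.8% of all tests. Their median log2 fold change was -0.53, beside -0.60 for all listed loci, and 3 of the 19 were at least 2-fold lower, beside 25.8% of all listed loci. The direction of the other 36 was not analysed here. The pathway lists were chosen with earlier results of these data known. Neither the number listed nor the size of the falls was tested against the type-A genes.

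Of 18 genes of cytokinin synthesis and activation 3 were listed. LOG1, an enzyme that releases active cytokinin from its nucleotide, had a WT level of 8.91 FPKM and a pkl level of 5.05 FPKM, 1.77-fold lower. IPT3, an isopentenyltransferase of the first step of synthesis, was 1.51-fold lower, from 10.1 to 6.67 FPKM. CYP735A2, which makes trans-zeatin forms, was 1.37-fold lower. The transport list used here held only 2 genes, PUP14 and ABCG14, and both were listed. PUP14, a cytokinin importer, was 1.43-fold lower, from 100.3 to 70.0 FPKM, at a locus that also overlaps the neighbouring gene AT1G19780. ABCG14, which loads root cytokinin for transport to the shoot, was 1.39-fold lower, from 16.2 to 11.6 FPKM.

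The cytokinin oxidases, which break the hormone down, held the largest falls among the other pathway lists, with 4 of 7 genes listed. CKX4 was 3.0-fold lower, from 1.49 to 0.498 FPKM, and CKX3 was 2.59-fold lower, from 0.787 to 0.304 FPKM. These falls rest on low levels: 94.8% of the listed loci had a higher WT level than CKX4, and 98.8% a higher one than CKX3. CKX7 was 2.51-fold lower, from 8.09 to 3.23 FPKM. CKX6 was 1.49-fold lower, but its locus extends over the neighbouring gene AT3G63450, so the value is that of the locus.

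Among the signalling genes, the receptor gene AHK4 was the 1 of 3 receptors listed, 1.4-fold lower, from 8.24 to 5.89 FPKM. The phosphotransfer genes AHP1 and AHP2, 2 of 6, were 1.48-fold and 1.28-fold lower, from 53.5 and 51.5 FPKM. Of 11 type-B regulators 4 were listed, ARR11, ARR12, ARR2 and ARR1, by 1.93-fold, 1.54-fold, 1.33-fold and 1.18-fold. The ARR12 locus begins 314 bases beyond the end of the PKL locus, and the ARR1 locus extends over a neighbouring protein-coding gene, AT3G16860. The cytokinin response factor genes CRF2, CRF4 and CRF5, 3 of 6, were 1.26-fold to 1.44-fold lower. Neither of the 2 type-C regulators had a row.

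**Figure D5:**
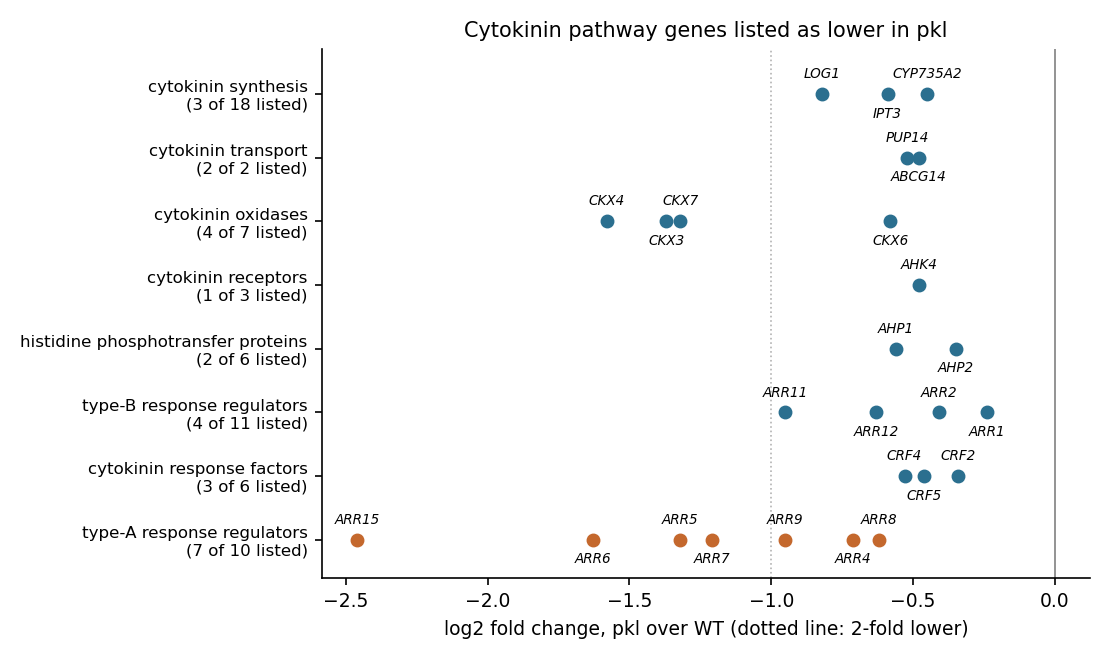
Log2 fold change, pkl over WT, of every cytokinin pathway gene with a row, by role, with the number listed of the number in each list; the dotted line marks 2-fold lower. Points left of that line are ARR5, ARR6, ARR7 and ARR15 of the type-A family and CKX3, CKX4 and CKX7 of the oxidases.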

How the data were processed

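Reads had been aligned with TopHat and processed with Cufflinks 2.1.1 and Cuffdiff 2.1.1 on TAIR10, per the submitters' processing notes. The deposited table gave 1 FPKM per genotype and locus, computed by the authors, with their log2 fold change, p-value, q-value and a test statistic, a signed score by the authors that was not used. The deposited log2 fold change matched the ratio of the FPKM values to within 1.23e-05. No values per library were used, and depth is unknown. The number of tests was recovered on the assumption of Benjamini-Hochberg q-values, where p over q is a rank divided by that number. Of the whole numbers from 2896 to 38999, the number taken brought every rank closest to a whole number, within 0.017. Multiples of it, which lie beyond this range, were not tried.

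The members and the pathway lists were chosen with earlier results of these data known. All members, every listed pathway gene, PKL and the locus nearest to each member are named. No test was run here, since the members and the table come from the same contrast. Positions are printed 1-based, and the table gave 0-based starts. Gene names, models and upstream sequences were from RefSeq TAIR10.1. All 2709 loci of 1 nuclear gene that were compared overlapped their annotated gene. Only 605 of them shared a start or an end with that gene, so a mismatch with the annotation is not particular to the members. Proteins were translated from the longest annotated coding sequence and aligned globally, and upstream windows locally, with Biopython 1.88. Alternatives were stricter q and level thresholds, pseudocounts and leaving out merged loci.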

Additional observations from a re-analysis of the deposited data

How the results depend on the processing

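With q under 0.01 or a WT level of at least 5 FPKM, ARR15 dropped out: 6 type-A members were left, 3 of them at least 2-fold lower. The median log2 fold change of the members went from -1.21 to -1.08 in both cases. Beside it, the median of all listed loci went from -0.60 to -0.69 with q under 0.01 and to -0.53 with at least 5 FPKM. A pseudocount of 1 moved the median of the members to -1.16 and that of all listed loci to -0.51. A minimum of 1 FPKM, a pseudocount of 0.1 and leaving out merged loci left 7 members, 4 at least 2-fold lower and the median at -1.21, wherever these apply. The other pathway genes listed numbered 15 to 19 across the filters. Leaving out each replicate was not run, as no library had values of its own. No paired analysis was possible because replicates had been combined by genotype. The ARR15 fall rests on the lowest level of the 7 listed members, and its error is unknown.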
